A study of Mus musculus with 4 samples.

Results

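The genes described here make up the machinery by which synaptic vesicles dock, fuse and are taken back into the nerve terminal. A probe counted as a member where its only platform gene symbol belonged to a fixed set of vesicle, SNARE, active zone or endocytosis symbols and it had a value on at least 3 of the 4 arrays. These were 70 of 6856 probes, for 69 of 6041 genes, and all 70 had a value on every array. Another 4 probes matched by symbol and did not qualify. The probes for Syngr2 and Syt2 and 1 of the probes for Vamp1 had no value on any array, and 1 of the probes for Vamp5 had values on 2 arrays. The rule works on the letters of a symbol, so that 8 of the 70 members belong to other processes, namely 5 Ercc genes of DNA repair and the GTPases Rab33a, Rab33b and Rab37. They are kept in the counts and described apart.

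In the nerve terminal, vesicles carry integral proteins such as synaptophysin and are bound on their outer face by synapsins. Active zone scaffolds and the GTPase Rab3 bring vesicles to the release site, where a vesicle SNARE (Vamp) pairs with plasma membrane SNAREs (a syntaxin and Snap25), and synaptotagmins trigger fusion when calcium enters. The ATPase Nsf and its SNAP adaptors then take the SNARE complex apart. Clathrin, the adaptor AP-2, amphiphysins, endophilins and dynamin retrieve the membrane. In the embryonic neocortex these genes are switched on as neurons are born and extend axons, before most synapses exist, and many of the families have relatives that serve secretion in any cell.

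RNA was taken from the neocortex of mouse embryos on a C57BL/6 background at embryonic day 16. Each of 4 two-colour arrays held total RNA of a separate null mutant sample, of a genotype described as synaptically silent, beside RNA of the same control pool, made from 4 wild-type biological replicates. The null RNA carried Cy3 on replicate 1 and Cy5 on replicates 2, 3 and 4. The labels do not say whether 1 null sample is 1 embryo, and for replicate 1 the mutant's source name reads day 14, against day 16 in the other labels.

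Each value is a log ratio between the channels, read as log2, and the sources used here do not say which channel was the numerator. Replicates 2 to 4 ran the same way in either case, so they gave the leading comparison. The null RNA was in Cy5 on each of these arrays. A gene's difference between dyes therefore cannot be told apart there from a difference between null and pool. Signs are printed as deposited, and a negative value cannot be read as lower or higher in the null. The pool is 1 control sample, so a test of the ratio against 0 leaves out the spread between controls. The files hold ratios and no levels, so the labelled tissue could not be checked by the level of its marker genes, and levels of different genes are not compared.

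Between 5777 and 5873 probes had a value on each array. Replicate 3 was the most spread, with an SD over probes of 0.63 against 0.40 to 0.48 on the other arrays, and with 7.82% of its values beyond 1 in size against 1.70% to 3.97%. Results are therefore also given without it where it matters. Among the 70 members the SD was 0.55 on replicate 3 and 0.30 to 0.45 on the others. As deposited, Pearson correlations over 5687 probes were 0.24 between replicates 2 and 3, 0.23 between 2 and 4 and -0.0022 between 3 and 4. Over the 70 members these were 0.26, 0.41 and 0.34. Over all 5687 probes, replicate 1 had correlations of -0.02, 0.077 and -0.12 with replicates 2, 3 and 4. The leading arrays thus agreed weakly, and replicates 3 and 4 were uncorrelated over all probes.

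On replicates 2 to 4 the members leaned to the negative side through a minority of genes, among them the synaptophysin relative Sypl2, the synapsin Syn3, the syntaxin Stx1a and the dynamin Dnm1. No member passed the adjusted threshold in limma, where 0 of 70 had an adjusted p under 0.05 (background 0% of 5720 probes), and the smallest adjusted p of a member was 0.450. At an unadjusted p under 0.05 limma listed 11 members, or 15.7%, against 9.67% of all probes tested. Of these, 9 were negative, or 12.9% of the members against 4.06% of all probes, and 2 were positive, or 2.86% against 5.61%. A mean below -0.5 was found for 9 members, 12.9% against 4.18%, and a mean above 0.5 for 1, 1.43% against 4.55%. Negative means numbered 42, or 60% against 52.6%, and the median of the members' means was -0.056 against -0.016 for all probes. The 3 arrays had the same sign for 25 members, 35.7% against 33.5%, and were all negative for 17, 24.3% against 17.3%. The share with the same sign lay near the background, while the negative tail on replicates 2 to 4 held a larger share of the members than of all probes. That share depended on the arrays used. Without replicate 2, 4 members (5.71% against 4.35% of all probes) were at an unadjusted p under 0.05 in limma, 2 of them negative, or 2.86% against 1.43%. Without replicate 3 there were 5 (7.14% against 9.53%), 3 of them negative, or 4.29% against 4.55%, a share near the background. Without replicate 4 there were 10 (14.3% against 10.9%), of which 9 were negative, or 12.9% against 5.77%. Of the 11 members, Sypl2 alone was at an unadjusted p under 0.05 whichever of the 3 arrays was left out. These shares describe the list and are no test of it. The 95% interval of a member's mean reached 0.41 to either side at the median member, or 1.33-fold, and between 0.34 and 0.98 over the members.

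**Figure D1:**
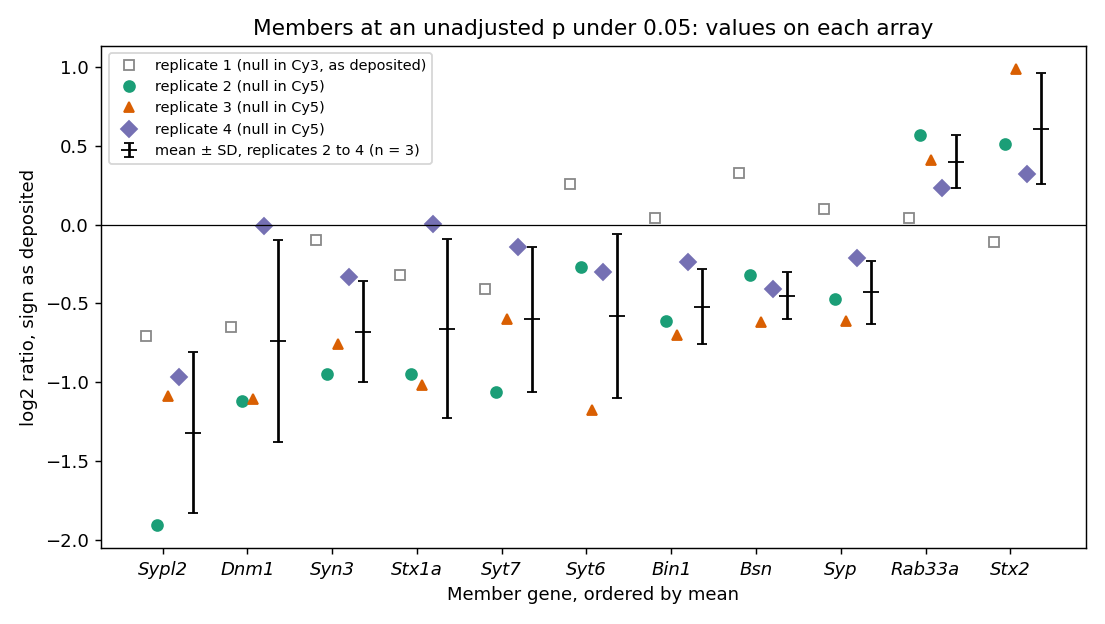
Log2 ratios, with the sign as deposited, of the 11 members at an unadjusted p under 0.05, by array, with the mean ± SD of replicates 2 to 4 (n = 3) in black. The 9 negative members have their values on replicates 2 and 3 between -0.27 and -1.91, and Dnm1 and Stx1a have values near 0 on replicate 4.

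Promoter sequences of the negative members are shown to let their common features be seen beside the values. RefSeq-derived promoters of build GRCm38.p6, 250 bases before to 50 after a start, were found for 46 of the 61 member genes outside the letters-only matches, by Entrez ID, and for 6 of the 9 negative genes. Of these 6, the 5 with a single start in the table are printed on the strand of the gene. Capitals mark a GC box (GGGCGG), the core of the cyclic AMP response element (TGACG) or the core of the NRF1 motif (GCATGCGC), each searched on both strands.
Sypl2: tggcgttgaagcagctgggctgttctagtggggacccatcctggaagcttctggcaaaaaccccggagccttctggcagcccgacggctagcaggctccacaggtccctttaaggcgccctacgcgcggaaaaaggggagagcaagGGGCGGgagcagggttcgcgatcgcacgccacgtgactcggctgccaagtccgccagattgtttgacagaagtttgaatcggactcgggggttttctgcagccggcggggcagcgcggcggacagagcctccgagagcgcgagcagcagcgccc
Syp: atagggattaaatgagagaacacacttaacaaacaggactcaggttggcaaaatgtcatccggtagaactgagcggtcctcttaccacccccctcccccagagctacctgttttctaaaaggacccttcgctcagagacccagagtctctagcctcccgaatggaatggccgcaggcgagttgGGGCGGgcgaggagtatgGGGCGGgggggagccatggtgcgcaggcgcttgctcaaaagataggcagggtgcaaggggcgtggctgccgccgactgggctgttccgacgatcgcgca
Stx1a: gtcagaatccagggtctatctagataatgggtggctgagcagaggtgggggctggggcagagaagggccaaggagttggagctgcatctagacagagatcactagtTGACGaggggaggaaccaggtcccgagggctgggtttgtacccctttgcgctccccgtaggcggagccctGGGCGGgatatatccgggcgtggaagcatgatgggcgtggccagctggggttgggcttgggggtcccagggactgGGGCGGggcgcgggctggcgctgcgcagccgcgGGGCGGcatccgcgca
Bsn: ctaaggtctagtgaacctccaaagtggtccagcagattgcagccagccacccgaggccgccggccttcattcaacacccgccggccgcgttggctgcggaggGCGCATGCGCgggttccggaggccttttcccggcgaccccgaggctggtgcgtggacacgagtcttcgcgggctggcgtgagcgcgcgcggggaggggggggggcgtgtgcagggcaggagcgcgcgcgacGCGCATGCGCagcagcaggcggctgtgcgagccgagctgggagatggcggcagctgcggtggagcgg
Dnm1: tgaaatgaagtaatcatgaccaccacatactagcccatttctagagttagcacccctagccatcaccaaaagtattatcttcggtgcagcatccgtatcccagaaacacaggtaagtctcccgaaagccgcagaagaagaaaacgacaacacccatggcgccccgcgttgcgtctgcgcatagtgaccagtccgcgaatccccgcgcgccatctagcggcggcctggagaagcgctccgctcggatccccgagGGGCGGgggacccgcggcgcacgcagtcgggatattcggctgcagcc

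These windows are chr3:108226550-108226849 (minus strand) for Sypl2, chrX:7638330-7638629 (plus strand) for Syp, chr5:135023232-135023531 (plus strand) for Stx1a, chr9:108190334-108190633 (minus strand) for Bsn and chr2:32353280-32353579 (minus strand) for Dnm1. Syp holds 2 GC boxes, 67 and 49 bases before its start. Stx1a holds a TGACG 144 bases before the start and 3 GC boxes, 74 bases before it and 1 and 34 bases after it. Bsn holds the NRF1 core in stretches that begin 148 and 17 bases before the start, each matching on both strands with an overlap, and no GC box. A single GC box lies 104 bases before the start in Sypl2 and 3 bases after it in Dnm1. Over the 62 promoters of the members, 58.1% held a GC box against 35.7% of all 32851 promoters of the table. The core TGACG was in 29% against 20.8%, and the full element TGACGTCA, which contains TGACG, was in 3 member promoters, those of Sh3gl2, Stxbp3 and Syn1, or 4.84% against 1.79%. The NRF1 core was in 6, those of Bsn, Snap23, Stx4a, Stx7 and Syn1, or 9.68% against 2.71%. The EGR motif (GCGGGGGCG) was in 5, or 8.06% against 2.91%, and can overlap a GC box. The TATA motif (TATAAA) was in 6.45% against 13.6%. Median GC content was 61.3% in the members' promoters and 52.7% in all promoters, so the GC-rich motifs were looked for in sequences that differ in composition. A match of letters is a description and no binding was measured.

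Vesicle membrane proteins comprised 9 members, 7 of them with a negative mean (77.8% against 52.6% of all probes), and a median of -0.21. At an unadjusted p under 0.05 in limma, 3 were negative and 0 positive, against 4.06% and 5.61% of all probes. With replicate 1 turned, 4 of the 9 means over 4 arrays were negative and the median was 0.0053. With it as deposited, these were 9 and -0.30. Sypl2, a synaptophysin relative best known from skeletal muscle triads, had -1.91, -1.09 and -0.97 on replicates 2, 3 and 4, and -0.71 on replicate 1. As deposited, all of its values were on a single side of 0. With replicate 1 turned, that array lay on the other side, and the mean over the arrays was -0.82 ± 1.10 (SD, n = 4). On replicates 2 to 4 the mean of Sypl2 was -1.32 ± 0.51 (SD, n = 3), 2.50-fold in size, with a 95% interval from -1.87 to -0.78. There limma gave an unadjusted p of 0.00114 and an adjusted p of 0.450. This was the 7th smallest p among all probes. Syn3, the third synapsin and the one expressed early in development, had -0.95, -0.76 and -0.33 on replicates 2, 3 and 4 and -0.10 on replicate 1. Its mean was -0.68 ± 0.32 (SD, n = 3), with an adjusted p of 0.454 in limma.

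Synaptophysin itself, Syp, the major integral protein of synaptic vesicles, had -0.47, -0.61 and -0.21 on replicates 2, 3 and 4 and 0.10 on replicate 1. Replicates 2 to 4 did not cross 0, and the mean was -0.43 ± 0.20 (SD, n = 3), with an interval from -0.81 to -0.049 and an adjusted p of 0.484 in limma. Without replicate 2 its unadjusted limma p was 0.151. The 2 other synapsins were closer to 0 than Syn3. Syn1 had -0.26, -0.14 and -0.21, a mean of -0.21 ± 0.062 (SD, n = 3), and Syn2 had -0.25, -0.16 and 0.11, a mean of -0.10 ± 0.19. Their intervals, from -0.55 to 0.14 and from -0.48 to 0.27, include 0 and also a modest shift either way. The synaptogyrins, tetraspan vesicle proteins, had no common direction. Syngr1 had -1.36 on replicate 2 and 0.20 and 0.33 on replicates 3 and 4, and the means of Syngr3 and Syngr4 were 0.016 and 0.092. Sypl, the relative of synaptophysin found in many tissues, had a mean of -0.027.

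The role named calcium sensors held 11 synaptotagmins and rabphilin, grouped by symbol and not by calcium binding of each protein. Of the 12 means, 8 were negative (66.7% against 52.6% of all probes), and the median was -0.21. In limma 2 were negative and 0 positive at an unadjusted p under 0.05, against 4.06% and 5.61% of all probes. Syt7, a slow, high-affinity calcium sensor, had -1.06, -0.60 and -0.14 on replicates 2, 3 and 4 and -0.41 on replicate 1. Its mean of -0.60 ± 0.46 (SD, n = 3) had an adjusted p of 0.477 in limma, and replicate 4 held the value nearest 0. Without replicate 2 its mean was -0.37, with an unadjusted limma p of 0.193. Syt6 had -0.27, -1.18 and -0.30, and 0.26 on replicate 1, so that replicate 3 lay far below the others. Its mean was -0.58 ± 0.52 (SD, n = 3), or -0.28 without replicate 3, with an adjusted p of 0.502 in limma on all 3 arrays.

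Syt1, the fast calcium sensor of forebrain neurons, had 0.069, -0.60 and -0.28 on replicates 2, 3 and 4. These values lay on both sides of 0, and the mean was -0.27 ± 0.33 (SD, n = 3), with an interval from -0.71 to 0.17. It was -0.11 without replicate 3 and -0.44 without replicate 2. Syt8 stood on the other side, with 0.035, 0.66 and 0.55, a mean of 0.42 ± 0.33 and an interval from -0.024 to 0.86. Syt3 and rabphilin (Rph3a), a Rab3 effector with calcium-binding domains, were negative on all 3 arrays, with means of -0.40 ± 0.33 and -0.23 ± 0.18. The widest spread of any member belonged to Syt9, with -0.56 on replicate 2 and 1.54 on replicate 3. The means of the remaining synaptotagmins, Syt4, Syt5, Syt10, Syt11 and Syt13, ran from -0.39 to 0.18.

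The SNARE proteins differed from the other roles in the sign of their median. Of 17 members, 6 had a negative mean (35.3% against 52.6% of all probes), and the median was 0.098. Limma gave 1 negative and 1 positive member at an unadjusted p under 0.05, against 4.06% and 5.61% of all probes. Stx1a, the plasma membrane syntaxin of nerve terminals, had -0.95 and -1.02 on replicates 2 and 3, 0.0029 on replicate 4 and -0.32 on replicate 1. Replicates 2 and 3 thus agreed closely and replicate 4 showed no shift. The mean was -0.66 ± 0.57 (SD, n = 3), with an adjusted p of 0.484 in limma, and it was -0.99 without replicate 4. Stx2, a syntaxin of many cell types, had 0.51, 0.99 and 0.32 on replicates 2, 3 and 4 and -0.11 on replicate 1. It was positive on all 3 arrays of the leading comparison, with a mean of 0.61 ± 0.35 (SD, n = 3), an interval from 0.16 to 1.05 and an adjusted p of 0.473 in limma.

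The difference between Stx1a and Stx2 was not tested. The means of the other syntaxins, Stx3, Stx4a, Stx5a, Stx7 and Stx8, lay between -0.15 and 0.19. Snap25, the partner of Stx1a at the nerve terminal, had 0.17, 0.26 and 0.18, among the tightest values of the list, with a mean of 0.20 ± 0.05 (SD, n = 3) and an interval from -0.14 to 0.55. That interval takes its width from the spread pooled over probes and includes 0. Vamp2, the main vesicle SNARE of the forebrain, had 0.23, -0.71 and 0.28, so that replicate 3 alone was negative and set the sign of the mean of -0.07 ± 0.56. Without replicate 3 the mean of Vamp2 was 0.25. The other Vamp genes, which include SNAREs of endosomes and lysosomes, had means between -0.041 and 0.31, and the means of Snap23 and Snap29, the forms found in many cells, were 0.21 and -0.061.

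SNARE partners gave 11 probes for 10 genes, with 7 means negative (63.6% against 52.6% of all probes) and a median of -0.059. In limma 0 members were at an unadjusted p under 0.05, against 9.67% of all probes. Snap91, described below as a clathrin assembly protein, was counted here by its symbol, and its mean of -0.059 is the median. The gene Napb, which encodes the brain form of the SNAP adaptor for Nsf, was measured by 2 probes that disagreed. The first had -1.48, -0.29 and -0.13 on replicates 2, 3 and 4, a mean of -0.63 ± 0.74 (SD, n = 3), and the second had 0.024, -0.074 and 0.43, a mean of 0.13 ± 0.27. No direction is given for this gene. Snapin, a partner of Snap25 that also belongs to an endosomal sorting complex, had -0.065, 0.87 and 0.55, a mean of 0.45 ± 0.48 and an interval from -0.072 to 0.98. Its mean was 0.24 without replicate 3 and 0.71 without replicate 2. Dnajc5, the cysteine string protein that acts as a chaperone on vesicles, had -0.17, -0.85 and -0.074, a mean of -0.37 ± 0.42 that was -0.12 without replicate 3.

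Nsf, the ATPase that separates SNARE complexes after fusion, was negative on all 4 arrays as deposited, with -0.11, -0.19 and -0.39 on replicates 2, 3 and 4 and -0.25 on replicate 1. Its mean was -0.23 ± 0.14 (SD, n = 3) and the interval ran from -0.59 to 0.13. The complexins, which bind the assembled SNARE complex, lay around 0, with means of -0.053 ± 0.14 for Cplx1 and 0.12 ± 0.37 for Cplx2. The syntaxin-binding genes Stxbp2, Stxbp3 and Stxbp4 had means of -0.28, -0.12 and 0.14, and Snap91, a clathrin assembly protein of nerve terminals, had -0.059.

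Rab3 and active zone genes were only 4, of which 3 had a negative mean (75% against 52.6% of all probes). Limma gave 1 negative member at an unadjusted p under 0.05, against 4.06% of all probes. Bsn, the active zone scaffold bassoon, had -0.32, -0.62 and -0.41 on replicates 2, 3 and 4, close together and all below 0, and 0.33 on replicate 1. Its mean was -0.45 ± 0.15 (SD, n = 3), 1.37-fold in size, with an adjusted p of 0.473 in limma. Rab3a, the main Rab3 GTPase of the brain, had 0.004, -0.59 and -0.039, so that its mean of -0.21 ± 0.33 rested on replicate 3 and was -0.017 without it. Rab3d, a form of exocrine and other secretory cells, had 0.031, 0.29 and 0.17, a mean of 0.16 ± 0.13. Rims2, an active zone organiser, had a mean of -0.058 ± 0.079, with an interval from -0.40 to 0.29.

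Endocytosis genes gave 9 members, 7 with a negative mean (77.8% against 52.6% of all probes), and a median of -0.17. In limma 2 were negative and 0 positive at an unadjusted p under 0.05, against 4.06% and 5.61% of all probes. Dnm1, the neuronal dynamin that pinches vesicles from the membrane, had -1.12 and -1.11 on replicates 2 and 3, -0.008 on replicate 4 and -0.65 on replicate 1. The pattern over arrays was that of Stx1a, with replicates 2 and 3 alike and replicate 4 at 0. The mean was -0.74 ± 0.64 (SD, n = 3), 1.67-fold in size, with an adjusted p of 0.473 in limma, and -1.11 without replicate 4. Bin1, or amphiphysin 2, which bends membranes, had -0.61, -0.70 and -0.24 and was negative on all 3 arrays, while replicate 1 had 0.04. Its mean was -0.52 ± 0.24 (SD, n = 3), with an interval from -0.92 to -0.12 and an adjusted p of 0.473 in limma.

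The subunits of the clathrin adaptor AP-2 had means of -0.27 for Ap2a1, -0.19 for Ap2m1 and -0.02 for Ap2a2, each with values on both sides of 0. Endophilins, which recruit synaptojanin and dynamin, had means of 0.23 ± 0.29 for the brain form Sh3gl2, 0.16 for Sh3gl3 and -0.096 for Sh3gl1. Synj2, a synaptojanin of many tissues, had a mean of -0.17 ± 0.31.

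The 8 members matched by letters only had a median of -0.0011 and 4 negative means. Rab33a, a GTPase of the secretory pathway, had 0.57, 0.41 and 0.23 on replicates 2, 3 and 4, a mean of 0.40 ± 0.17 (SD, n = 3) and an adjusted p of 0.488 in limma, and was the second positive member at an unadjusted p under 0.05. Ercc2, a helicase of nucleotide excision repair, had -0.039, -1.24 and -0.27, a mean of -0.51 ± 0.64 that was -0.15 without replicate 3, and Ercc1, a subunit of a repair nuclease, had -0.22 ± 0.15. Without these 8, the remaining 62 probes had a median of -0.059. Of the 62, 9 were negative at an unadjusted p under 0.05 in limma (14.5% against 4.06% of all probes). Another 1 was positive, against 5.61% of all probes.

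**Figure D2:**
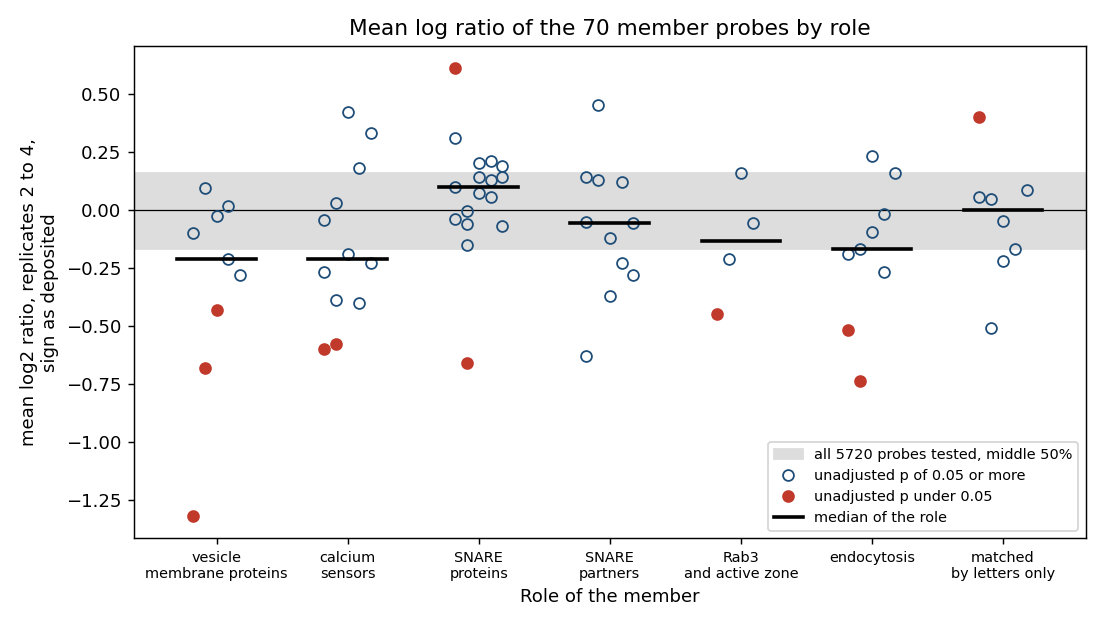
Mean log2 ratio on replicates 2 to 4, sign as deposited, for each of the 70 member probes, grouped by role. Filled points have an unadjusted p under 0.05, black bars are the medians of the roles, and the grey band is the middle 50% of all 5720 probes, from -0.17 to 0.16. The SNARE proteins are the only role with a median above 0, at 0.098, which lies inside the grey band.

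The members did not stand the same on every array. The median of the 70 on replicates 2, 3 and 4 was -0.05, -0.16 and 0.033, against -0.031, -0.004 and 0.0053 for all probes tested, and it was -0.091 on replicate 1 as deposited against 0.0037. Negative values made up 62.9% of the members on replicate 2 and 61.4% on replicate 3, against 54% and 50.3% of all probes, but 47.1% against 49.1% on replicate 4. Vesicle membrane proteins had a median of -0.26 and -0.16 on replicates 2 and 3 and 0.11 on replicate 4. For endocytosis genes these medians were -0.096, -0.47 and 0.069. The calcium sensors and the SNARE partners had a negative median on every array as deposited, and the SNARE proteins a positive one.

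**Figure D3:**
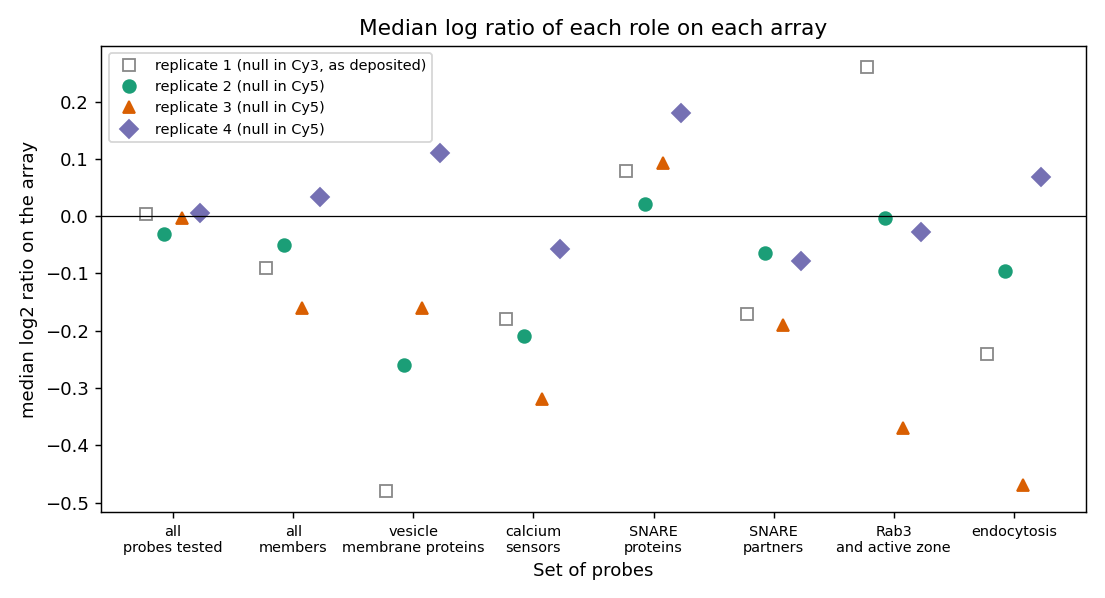
Median log2 ratio of all probes, all members and each role on each array. The median of all probes lies within 0.031 of 0 on every array. The median of the 9 endocytosis genes ranges from -0.47 on replicate 3 to 0.069 on replicate 4.

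Replicate 1, with the dyes exchanged, could be added to the comparison only under an assumed sign. If every ratio had the same channel on top, replicate 1 has to be turned. With it turned, limma listed 0 members at an adjusted p under 0.05 (0% of 5687 probes) and 8 at an unadjusted p under 0.05, 11.4% against 8.44%. Of the 8, 6 were negative, 8.57% against 3.15%, and 2 positive, 2.86% against 5.29%. They were Bsn at -0.42, Napb at -0.63 by its first probe, Syt6 at -0.50, Bin1 at -0.40, Syn3 at -0.49 and Syp at -0.35, with Stx2 at 0.48 and Snapin at 0.49. Bsn had the smallest unadjusted limma p of these, 0.0113, and Sypl2 had -0.82 ± 1.10 (SD, n = 4).

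With replicate 1 as deposited, as if the submitters had already turned it, 0 members and 0.0352% of all probes had an adjusted p under 0.05 in limma. At an unadjusted p under 0.05 there were 6 members, 8.57% against 7.12%, all negative, 8.57% against 3.64%, where 3.48% of all probes were positive. They were Sypl2 at -1.17, Dnm1 at -0.72, Syt7 at -0.55, Stx1a at -0.57, Syn3 at -0.54 and Syt3 at -0.36. Sypl2 had the smallest p, 0.000602, with an adjusted p of 0.570 in limma. Syn3 alone was at an unadjusted p under 0.05 under both signs. The median of all members' means was -0.023 with replicate 1 turned and -0.076 as deposited. A fit with replicate 1 turned and a term for the dye gave 3 members at an unadjusted p under 0.05 in limma, 4.29% against 6.73% of all probes. Of these, 1 was negative (1.43% against 1.93%) and 2 were positive. Negative means were then 50% of the members against 51.9% of all probes. The mean of Sypl2 was -0.31 in that fit (unadjusted limma p 0.215), that of Stx1a -0.17 (0.505), that of Syt7 -0.095 (0.662) and that of Dnm1 -0.045 (0.865), each nearer 0 than on replicates 2 to 4. These genes had a negative value on replicate 1 as deposited, the only array with the dyes exchanged, so that array alone set the move. Bsn at -0.39 (0.0387), Napb at -0.62 (0.0738) by its first probe and Syt6 at -0.42 (0.108) moved less. The 4 fits share replicates 2 to 4 and the pool, so their values are set side by side and are not independent.

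**Figure D4:**
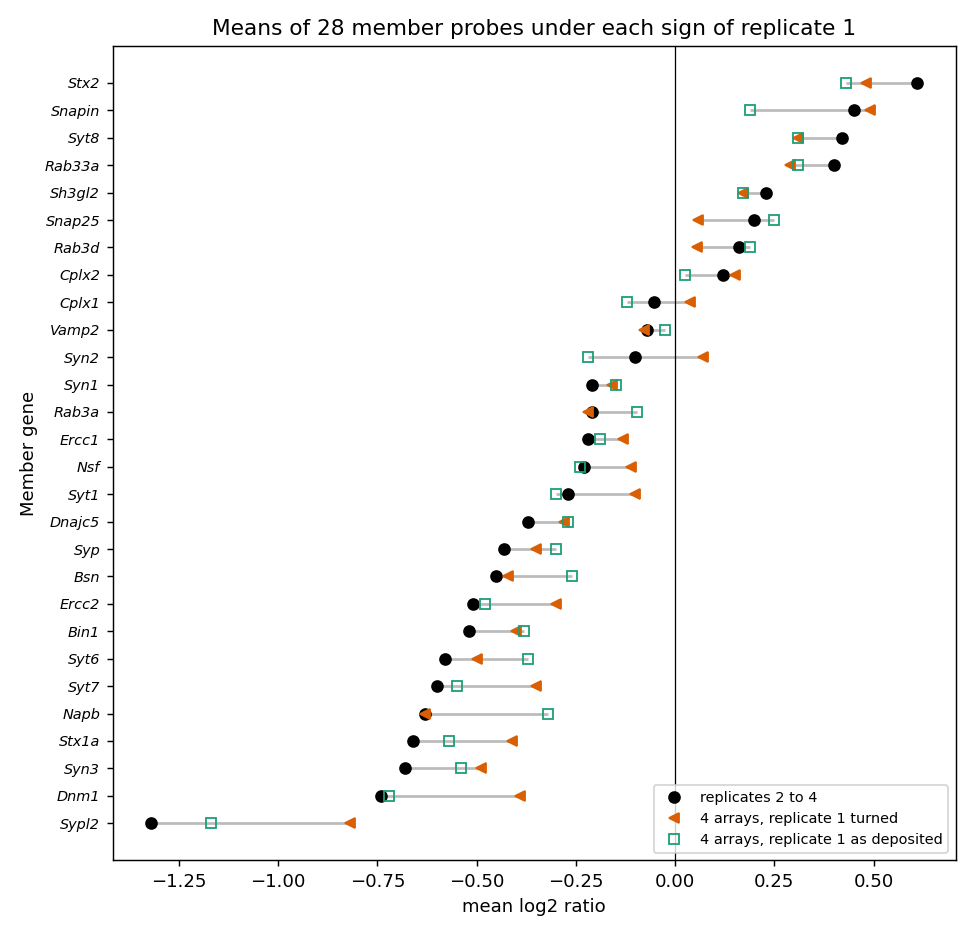
Mean log2 ratio of 28 member probes on replicates 2 to 4 (circles), on 4 arrays with replicate 1 turned (triangles) and on 4 arrays with replicate 1 as deposited (squares). Cplx1 and Syn2 change sign when replicate 1 is turned, while Sypl2 remains the most negative in each.

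Among the members, 31 genes on 32 probes were listed as forms found mainly in neurons, from a list of 53 genes drawn up with earlier results of these data known. Of these probes, 23 (71.9%) had a negative mean, 7 were negative and 0 positive at an unadjusted p under 0.05, and the median was -0.14. The other 30 probes outside the letters-only matches, mostly relatives expressed in many tissues, had 15 negative means (50%), 2 negative and 1 positive at that mark, and a median of 0.025. Over all 5720 probes tested, 52.6% of the means were negative, 4.06% of the probes were negative and 5.61% positive at that mark, and the median was -0.016. The difference between these groups was not tested.

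Other genes of the vesicle cycle were counted in the same fit. There 52.6% of all 5720 means were negative, and 4.06% of probes were negative and 5.61% positive at an unadjusted p under 0.05 in limma. Of 33 listed transporters, proton pump subunits and further vesicle or calcium channel genes, 16 were measured, 11 with a negative mean and a median of -0.16, and 1 was negative at an unadjusted p under 0.05, the vesicle membrane protein Scamp5 at -0.51 ± 0.35 (SD, n = 3). Slc32a1, the vesicular GABA transporter, had -0.33 ± 0.31 and Atp6v0a1, a subunit of the proton pump, had -0.33 ± 0.085. Of 52 further regulators of release, 20 were measured on 21 probes, 10 of them negative, with a median of 0.0056. At an unadjusted p under 0.05, 1 of them was negative and 0 positive, namely Doc2g, a relative of the Doc2 calcium sensors, at -0.60 ± 0.18. Of 55 further genes of endocytosis and sorting, 31 were measured on 32 probes, 16 of them negative, with a median of -0.034, and 1 was negative and 1 positive at that mark. Epn1, an epsin that helps to bend clathrin-coated membrane, had -0.71 ± 0.55, and Pip5k1b, a kinase that makes the lipid bound by AP-2, had 1.10 ± 0.83. No gene of these lists passed the adjusted threshold of 0.05 in limma.

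Markers of whole cell types were counted in the same fit, where 52.6% of all 5720 means were negative. The middle 50% of all means ran from -0.17 to 0.16. The medians of the neuronal, neural progenitor, glial and choroid plexus lists lay inside that range. General neuronal markers were measured for 24 of 29 genes on 26 probes, with 21 means negative and a median of -0.097, which was -0.16, -0.17 and -0.11 on replicates 2, 3 and 4 and -0.045 on replicate 1 as deposited. On replicate 4 the median was 0.033 for all members and -0.11 for these neuronal markers. Within the members it was -0.025 on that array for the neuronal forms and 0.10 for the other forms outside the letters-only matches. Neural progenitor markers had 11 of 16 probes negative and a median of -0.092, interneuron markers 9 of 13 and -0.23, and glial markers 6 of 8 and -0.12. Among cells from outside the neural lineage, vessel markers had 9 of 13 negative and a median of -0.20, meningeal and mesenchymal markers 8 of 9 and -0.35, blood markers 4 of 5 and -0.25, and microglia and leukocyte markers 3 of 12 and 0.42. Choroid plexus markers had 3 of 6 negative and diencephalic markers 5 of 6, with medians of -0.11 and -0.31. Among the neuronal probes 2 were negative and 1 positive at an unadjusted p under 0.05 in limma, against 4.06% and 5.61% of all probes. Vessel markers had 5 negative and 0 positive, meningeal and mesenchymal markers 3 and 1, and microglia and leukocyte markers 0 and 5. Each other list had at most 2 of either sign. The part of cell makeup in the members' values was not tested. In such tissue a difference in the number of cells of a type cannot be told apart from a difference in RNA per cell.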

How the data were processed

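Log ratios of neocortical RNA were measured on 2-colour arrays. Per the file headers and the labels, the authors deposited 1 processed value for each probe and array. The log2 values are the ratios as deposited by the authors, with the log base inferred, since they centre on 0 and some are too large for log10. How background, normalization and numerator were chosen is not given in the sources used here. The table had 0 further value columns. Depth does not apply, and the number of arrays limits the precision.

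Probes took their name from the platform annotation where it held a single symbol. All 70 members were matched by Entrez ID to RefSeq (GRCm38.p6), and 0 symbols changed. Each mean log ratio was tested against 0, two-sided, with limma 3.58.1 (lmFit, then eBayes; R 4.3.3). The fit covered all 5720 probes with a value on replicates 2 to 4, or 5687 on 4 arrays, with Benjamini-Hochberg adjustment over all of them and a threshold of 0.05. No set test was run. When the script was tested on simulated data for replicates 2 to 4 (5720 probes, 200 changed in each of 20 rounds), it recovered 53.8% of the 2-fold changes and 95.4% of the 4-fold ones, with 4.06% false calls. The simulated noise was independent, of equal spread on every array and without a shared pool. The real arrays differ in spread and share a pool. These rates therefore check the script and are not the recovery or error rates of these arrays.

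The members, lists and roles were chosen with earlier results of these data known. Full values are given for members at an unadjusted p under 0.05, for the 3 smallest p in each role and for a fixed set of textbook members. Others are given by value or range. Alternatives covered the sign of replicate 1, a dye term, centring, scale, missing values, averaging by gene, a robust prior, array weights, the letters-only members, an adjusted p of 0.1 and leaving out an array. The gene deleted in the mutants is not reported here. The arrays share a pool, so p-values measure only the spread between null samples and hybridisations.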

Additional observations from a re-analysis of the deposited data

Results flagged for a closer look

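In 56 tests of a single array against the other 3, over the 28 members with full values under both signs of replicate 1, 3 results stood apart by Dixon's criterion, where chance flags about 1 in 20 groups. With replicate 1 turned, Snap25 had -0.38 on replicate 1 against 0.17 to 0.26 on the others, so that this array went against its neighbours. With replicate 1 turned, Syt6 had -1.18 on replicate 3 against -0.30 to -0.26 on the others. With replicate 1 as deposited, Ercc1 had -0.39 on replicate 3 against -0.13 on each of the others.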

How the results depend on the processing

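No member passed an adjusted p of 0.05 in limma on replicates 2 to 4 or under any alternative, nor at 0.1. At an unadjusted p under 0.05 there were 11 on replicates 2 to 4 (15.7% against 9.67% of all probes). There were 6 on 4 arrays with replicate 1 as deposited (8.57% against 7.12%) and 3 with a dye term (4.29% against 6.73%). Leaving out an array gave 4 without replicate 2 (5.71% against 4.35%) and 5 without replicate 3 (7.14% against 9.53%). Without replicate 4 there were 10 (14.3% against 10.9%). Negative members were 9 on replicates 2 to 4 (12.9% against 4.06%) and 1 with a dye term (1.43% against 1.93%). They were 2 without replicate 2 (2.86% against 1.43%) and 3 without replicate 3 (4.29% against 4.55%). Array weights gave 12 members, or 17.1% against 18.7% of all probes. The members' median of -0.056 became 0.002 with a dye term and ran from -0.099 to -0.026 when an array was left out. With a dye term the mean also changed sign for Rab3d (-0.056), Nsf (0.011), Cplx1 (0.13), Snap25 (-0.087), Syt1 (0.062) and Syn2 (0.24). With replicate 1 turned it did so for Cplx1 (0.038) and Syn2 (0.07), with array weights for Cplx2 (-0.0093), Cplx1 (0.026) and Vamp2 (0.12), and on a common scale for Vamp2 (0.032). Without replicate 3, Cplx2 (-0.095 to 0.23 over the arrays left out) and Vamp2 (-0.24 to 0.25) changed sign. The cause of these changes was not tested. The other 322 values of single members kept their sign; none passed the adjusted threshold in any setting, so this says nothing of their size. With a dye term Sypl2 was at -0.31, Stx1a at -0.17, Syt7 at -0.095 and Dnm1 at -0.045, while Bsn was at -0.39 and Syt6 at -0.42. No paired analysis was possible because each value is already a ratio between a null sample and the pool, in an order that is not known, and the pool has no replicate numbers. Signal over background is unknown.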
